A study of Mus musculus with 4 samples.

Results

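Icam1, Vcam1, Itgam, Itgax, Itgal, Itgb2, Itga4, Itga5, Itgav and Cd44 are genes by which macrophages and their partner cells adhere to each other and to matrix. They were taken as a named set and found on the array through the RefSeq accession of each probe. All 10 were present, with 16 probes, among 22911 named genes and 56605 probes. RNA came from RAW264.7, an established mouse macrophage-like cell line. The series asks about RUVBL2, an ATPase of chromatin remodelling and chaperone complexes, in the expression of inflammatory genes. The 4 groups had 1 array each: cells with an siRNA pool against Ruvbl2 given LPS (lipopolysaccharide, a bacterial cell wall component), cells with the same pool given DMSO, cells with a non-targeting control siRNA given LPS, and control siRNA cells given DMSO. The titles spell the target of the pool with a letter missing, and it was read as Ruvbl2 from the series description. RNA was taken after a transfection by electroporation or a lipid reagent, and which of these was used for the arrays, as well as the dose and duration of LPS, is not given in the sources used here.

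Integrins are pairs of an alpha and a beta chain that bind ligands strongly after an activating signal from inside the cell. Itgb2 encodes the beta chain shared by the leucocyte integrins, whose alpha chains come from Itgal (LFA-1), Itgam (Mac-1) and Itgax (the CD11c chain), and Icam1 encodes a ligand of these pairs. Itga4 encodes the alpha chain of VLA-4, which binds the product of Vcam1 and fibronectin, Itga5 that of the classical fibronectin receptor, and Itgav that of the vitronectin receptors. Cd44 encodes a receptor for hyaluronan. In many cell types Icam1 and Vcam1 are classical targets of NF-kB, the transcription factor that LPS activates.

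The promoters of the members on which the results turn are shown first, because that of Icam1 carries a short NF-kB-like sequence and those of the others shown do not. RefSeq promoter windows on GRCm38.p6 were matched for 7 of the 10 genes. Those of Vcam1, Itgal and Itgb2 were not matched. Each line gives 250 bases upstream of an annotated start, read 5' to 3' in the direction of the gene: Icam1 at chr9:21015690-21015939 on the plus strand, Itga4 at chr2:79255176-79255425 on the plus strand, Cd44 at chr2:102901666-102901915 on the minus strand and Itgam at chr7:128062390-128062639 on the plus strand. Capitals mark matches on either strand to any of the motifs searched: the NF-kB consensus, GGAAATTCC, GAGGAA (a core bound by PU.1 and other ETS factors), TGANTCA (AP-1) and GGGCGG (Sp1).
Icam1: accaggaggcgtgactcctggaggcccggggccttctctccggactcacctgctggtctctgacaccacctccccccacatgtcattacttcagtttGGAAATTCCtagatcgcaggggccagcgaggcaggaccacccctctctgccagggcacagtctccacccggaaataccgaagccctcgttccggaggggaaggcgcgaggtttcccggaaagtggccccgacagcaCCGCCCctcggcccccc
Itga4: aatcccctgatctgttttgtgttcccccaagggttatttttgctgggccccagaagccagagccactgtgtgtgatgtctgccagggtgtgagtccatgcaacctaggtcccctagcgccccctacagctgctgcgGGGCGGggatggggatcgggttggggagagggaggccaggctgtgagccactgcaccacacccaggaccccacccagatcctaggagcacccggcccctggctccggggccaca
Cd44: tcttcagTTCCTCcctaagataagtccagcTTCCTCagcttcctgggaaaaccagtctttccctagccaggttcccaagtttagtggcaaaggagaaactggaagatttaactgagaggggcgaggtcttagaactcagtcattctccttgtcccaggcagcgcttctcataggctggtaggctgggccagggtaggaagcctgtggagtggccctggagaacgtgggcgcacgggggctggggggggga
Itgam: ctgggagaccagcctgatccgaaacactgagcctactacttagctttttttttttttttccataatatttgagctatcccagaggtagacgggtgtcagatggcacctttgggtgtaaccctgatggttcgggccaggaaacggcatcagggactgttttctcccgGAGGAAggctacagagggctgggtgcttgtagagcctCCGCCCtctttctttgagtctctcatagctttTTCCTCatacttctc

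The NF-kB consensus was in 3.9% of 32851 promoter windows of the same length and in 0 of the 7 matched here. GGAAATTCC, which differs from that consensus, was in 0.286% of all windows and only in that of Icam1 among the 7, at bases -153 to -145 from the start. GAGGAA was in 23.3% of all windows and in 4 of the 7, and Itgam, Itgav and Cd44 had 2 matches each. TGANTCA was in 6.75% of all windows and in that of Itgax, and GGGCGG in 32.7% and in 4 of the 7. No match of these motifs overlapped a match of another one in these windows. A match is a description of the letters and not of binding.

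All values are levels: the log2 of the spot's processed signal minus the 75th percentile of that array, so that 0 is the 75th percentile. Levels of different probes were not set against each other, apart from a sum over osteoclast markers given further on. Each group is a single array, so neither a replicate error nor a p-value exists. The technical SD given beside a difference comes from probes printed 10 times on an array, covers spot noise only and was 0.06 for a difference between bright spots (levels above 3) and 0.13 for levels from -2 to 3. Differences of 1 or more in size on the log2 scale (2-fold) were called. Between 54.1% and 55% of the RNA spots of an array were well above background, no spot was saturated, and the 75th percentiles of the signal were between 331 and 456. The Ruvbl2 siRNA arrays occupied slide row 2 and the control siRNA arrays row 1, so siRNA and row cannot be told apart. Ruvbl2 itself stood at 75.7% of control in LPS and at 79.2% in DMSO by its brighter probe, a reduction of less than 2-fold, and its dimmer probe differed by -0.12 in LPS and -0.55 in DMSO. Of 12 macrophage markers 10 were well above background on all 4 arrays, while Mertk was not on any and Mrc1 only on the control siRNA LPS array. Of 6 fibroblast markers 5, of 6 endothelial markers 3, of 6 dendritic cell markers 4 and of 7 T and B cell markers 3 were not well above background on any array. The T cell genes Cd3e and Cd4 were measured on all 4 arrays (levels of 0.06 to 0.23 and of 1.13 to 1.43).

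LPS against DMSO asks which adhesion genes belonged to the response to LPS. By the brightest probe of each gene, Itga4 was the member that fell and Cd44 the member that rose past 2-fold, and both did so with either siRNA. The other Cd44 probes gave 0.36 and 0.55 with control siRNA, under 2-fold, and 0.64 and 1.23 with Ruvbl2 siRNA. By the brightest probe the leucocyte integrin genes were under 2-fold, with differences of 0.37 to 0.84 with control siRNA and of -0.09 to 0.45 with Ruvbl2 siRNA. A dimmer probe of Itgam passed 2-fold with both. Icam1 differed by -0.48 with control siRNA. Vcam1 was not well above background on any array. With control siRNA 1 of the 9 members compared was called higher and 1 lower, beside 5.74% higher and 2.21% lower of the 13512 genes compared (7.95% in either direction). With Ruvbl2 siRNA the members again gave 1 higher and 1 lower, beside 4.14% higher and 2.07% lower of 13517 genes (6.21%). The median over the 9 members was 0.10 with Ruvbl2 siRNA, where that of all measured genes was -0.03, and 0.48 with control siRNA, where that of all measured genes was 0.00. The LPS comparisons use separate pairs of arrays, and each siRNA comparison given further on shares its arrays with them.

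**Figure D1:**
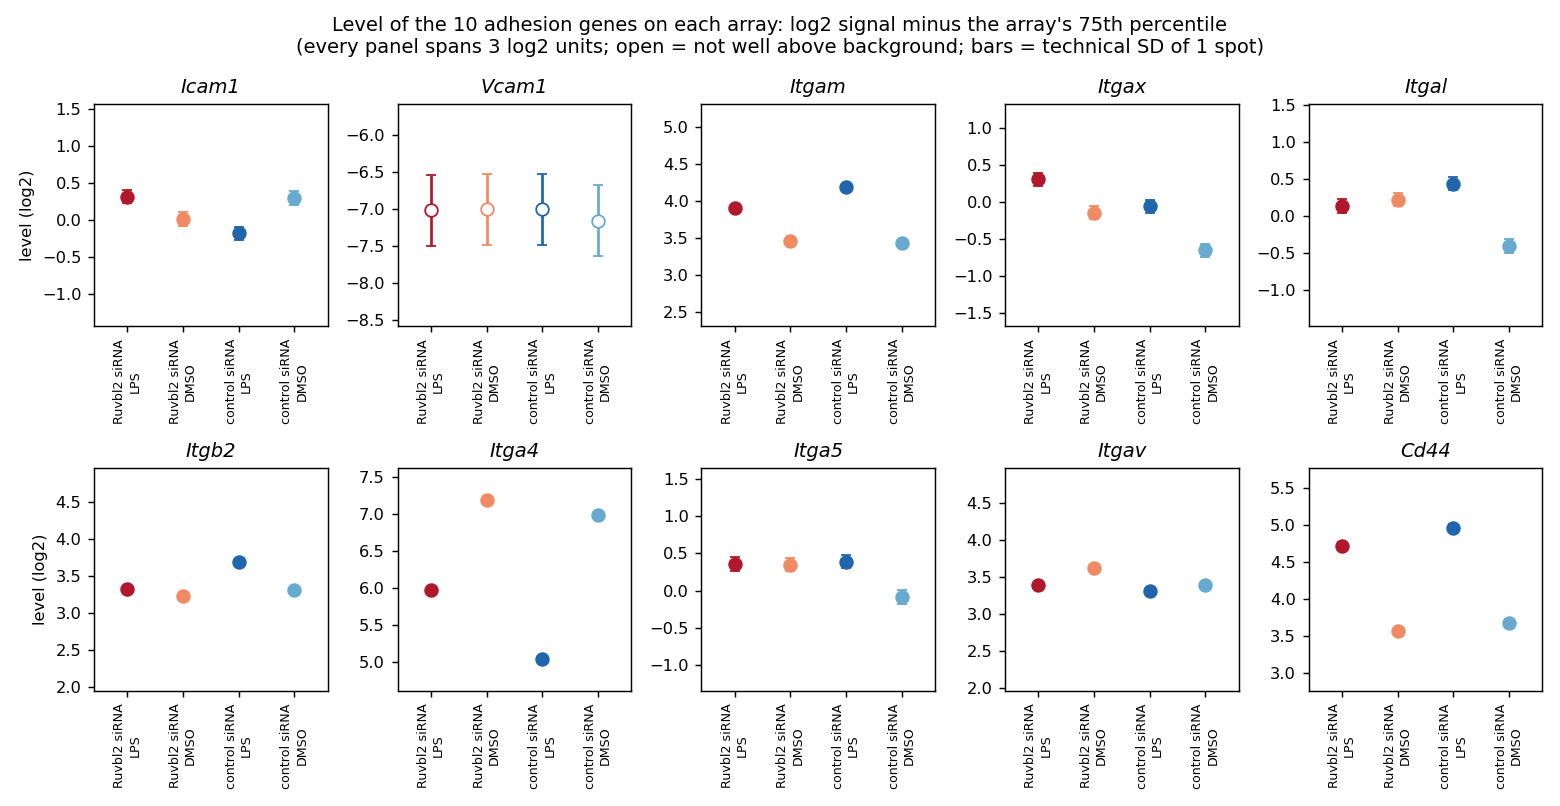
Level (log2 signal minus the array's 75th percentile) of each of the 10 genes on the 4 arrays, by the brightest probe; every panel spans 3 log2 units, bars are the technical SD of 1 spot, and open points were not well above background. Itga4 is lowest on the LPS arrays (5.97 with Ruvbl2 siRNA and 5.05 with control siRNA), Cd44 is highest there (4.72 and 4.96), and Vcam1 lies near -7 throughout.

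Among the ligands, Icam1 (probe A_52_P613241) had a level of 0.31 with LPS and 0.01 with DMSO in Ruvbl2 siRNA cells. In control siRNA cells it had a level of -0.18 with LPS and 0.29 with DMSO. The control siRNA LPS array was thus the lowest of the 4 for this gene, and the Ruvbl2 siRNA LPS array the highest. The LPS difference was 0.30 with Ruvbl2 siRNA and -0.48 with control siRNA (technical SD 0.13 each), so it had opposite signs, and neither reached 2-fold. The motif GGAAATTCC of its promoter shown above thus stood beside an mRNA that was not called higher with LPS. Both Vcam1 probes had levels between -7.26 and -7.00 on all arrays, below the lowest signal well above background (levels of -5.15 to -4.82), so no difference was computed for Vcam1.

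The leucocyte integrin genes had differences above 0 with LPS in control siRNA cells. Itgal, the LFA-1 alpha chain gene, had a level of 0.13 with LPS and 0.22 with DMSO in Ruvbl2 siRNA cells, and 0.44 with LPS and -0.41 with DMSO in control siRNA cells. Its control siRNA DMSO array was the lowest of the 4 and the other 3 lay between 0.13 and 0.44. Its LPS difference was -0.09 with Ruvbl2 siRNA, within the technical SD of 0.13, and 0.84 (1.79-fold) with control siRNA. Spike-in scaling turned the Ruvbl2 siRNA value to 0.28. Itgax had a level of 0.30 with LPS and -0.14 with DMSO in Ruvbl2 siRNA cells, and -0.06 with LPS and -0.66 with DMSO in control siRNA cells. Each Ruvbl2 siRNA array was higher than its control siRNA counterpart for Itgax, and each LPS array was higher than its DMSO counterpart. Its LPS difference was 0.45 with Ruvbl2 siRNA and 0.59 with control siRNA (technical SD 0.13 each). The second Itgax probe was not well above background on any array. Itgb2, the shared beta chain gene, had a level of 3.33 with LPS and 3.23 with DMSO in Ruvbl2 siRNA cells, and 3.68 with LPS and 3.31 with DMSO in control siRNA cells. The control siRNA LPS array was the highest for Itgb2, and the other 3 lay close together. Its LPS difference was 0.10 with Ruvbl2 siRNA and 0.37 with control siRNA (technical SD 0.06 each).

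Itgam, the Mac-1 alpha chain gene, had a level of 3.90 with LPS and 3.46 with DMSO in Ruvbl2 siRNA cells, and 4.19 with LPS and 3.44 with DMSO in control siRNA cells by its brighter probe. Both LPS arrays were above both DMSO arrays. Its LPS difference was 0.45 with Ruvbl2 siRNA and 0.76 with control siRNA by this probe, A_55_P1977934, designed on NM_001082960. The dimmer probe, A_55_P1977926, designed on NM_008401, gave 1.22 and 2.03 (technical SD 0.13 and 0.21), past 2-fold with both siRNAs. Both probes lay above 0 and differed in size, and with the mean of both probes the Itgam difference with control siRNA was 1.39, past the size rule. Itgam and Itgax lie near each other on chromosome 7, with 1 annotated gene and 0 protein-coding genes between them, and Itgal lies on the same chromosome with 50 annotated genes between it and Itgam. Itgad, which follows Itgax, was not well above background on any array.

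Itga4 fell with LPS by both of its probes. By the brighter one, A_55_P2040026, it had a level of 5.97 with LPS and 7.19 with DMSO in Ruvbl2 siRNA cells, and 5.05 with LPS and 6.99 with DMSO in control siRNA cells. Both LPS arrays lay below both DMSO arrays, and the control siRNA LPS array was the lowest. Itga4 fell with LPS to 42.9% of the DMSO signal in Ruvbl2 siRNA cells (log2 difference -1.22) and to 26.0% in control siRNA cells (-1.94), with technical SDs of 0.06. It held rank 158 from the lowest among 13517 genes with Ruvbl2 siRNA, and rank 29 among 13512 with control siRNA. The dimmer probe, A_66_P140103, gave -1.26 and -1.87, so both probes gave nearly the same values. Scaling on the spike-in RNA moved the Ruvbl2 siRNA value to -0.85, which ends that call, and gave -1.89 with control siRNA.

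Itga5 and Itgav differed less. Itga5, the fibronectin receptor alpha chain gene, had a level of 0.36 with LPS and 0.35 with DMSO in Ruvbl2 siRNA cells, and 0.39 with LPS and -0.09 with DMSO in control siRNA cells. As for Itgal, the control siRNA DMSO array alone stood lower and the other 3 were alike. Its LPS difference was 0.01 with Ruvbl2 siRNA and 0.48 with control siRNA (technical SD 0.13 each). Itgav had a level of 3.39 with LPS and 3.62 with DMSO in Ruvbl2 siRNA cells, and 3.31 with LPS and 3.39 with DMSO in control siRNA cells. Its range of 0.31 over the arrays was the smallest of the 9 members measured, and its LPS difference was -0.23 with Ruvbl2 siRNA (0.14 with spike-in scaling) and -0.08 with control siRNA.

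Cd44, the hyaluronan receptor gene, had a level of 4.72 with LPS and 3.57 with DMSO in Ruvbl2 siRNA cells, and 4.96 with LPS and 3.68 with DMSO in control siRNA cells by its brightest probe, A_55_P2166501. Both LPS arrays lay more than 1 above both DMSO arrays. Cd44 rose 2.22-fold with LPS in Ruvbl2 siRNA cells and 2.43-fold in control siRNA cells (log2 differences 1.15 and 1.28, technical SD 0.06). The 3 Cd44 probes, all assigned to NM_009851, did not give 1 size. A_55_P2912261, also bright (levels of 3.54 to 4.18), gave 0.64 with Ruvbl2 siRNA and 0.36 with control siRNA. The dim A_55_P2166488 gave 1.23 and 0.55. All 6 values were above 0, and with the mean of the probes the difference was 1.01 with Ruvbl2 siRNA and 0.73, under 2-fold, with control siRNA.

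**Figure D2:**
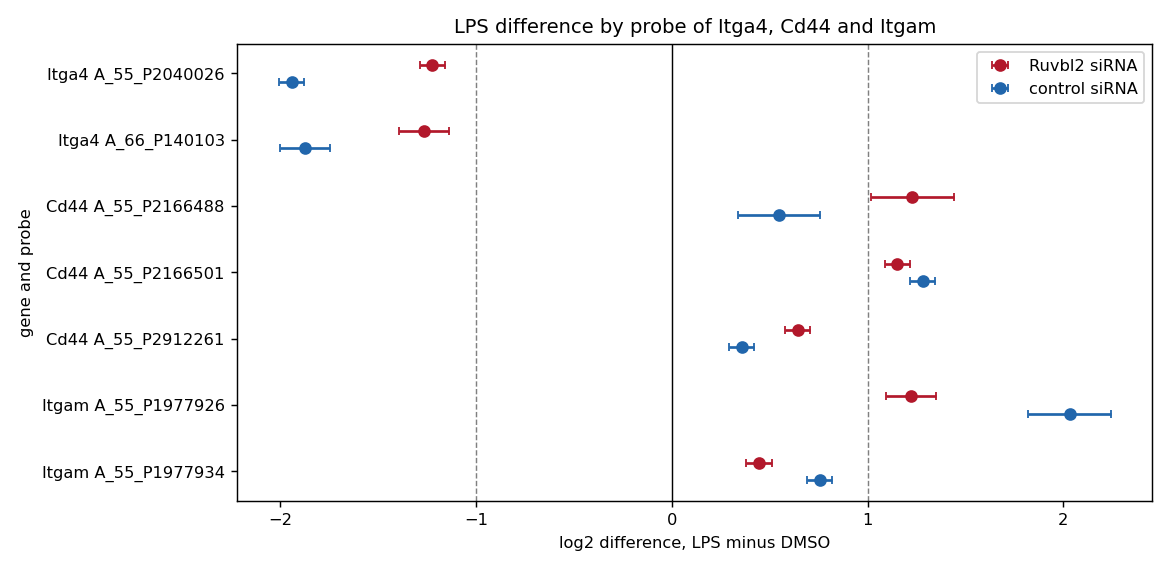
LPS minus DMSO (log2 difference, horizontal axis) for every probe of Itga4, Cd44 and Itgam, with Ruvbl2 siRNA in red and control siRNA in blue; bars are the technical SD of the difference and dashed lines mark 2-fold. Both Itga4 probes lie past -1 with both siRNAs, while the probes of Cd44 (0.36 to 1.28) and of Itgam (0.45 to 2.03) spread on the other side of 0.

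The siRNAs were compared in each treatment to ask whether the Ruvbl2 pool went with another level of the adhesion genes. No member reached 2-fold in either treatment. Itga4 came nearest under LPS, 1.90-fold higher in signal with Ruvbl2 siRNA, and Itgal in DMSO, at 1.54-fold. Under LPS 0 of 9 members were called, beside 1.06% higher and 1.46% lower of 13472 genes (2.52%). In DMSO 0 of 9 were called, beside 1.01% higher and 0.537% lower of 13418 genes (1.55%). No p-value can be had from 1 array per group, so no unadjusted count exists either. The member median was -0.04 under LPS and 0.20 in DMSO, where those of all measured genes were 0.00 and 0.04.

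Under LPS the Itga4 level was 5.97 with Ruvbl2 siRNA and 5.05 with control siRNA, a difference of 0.92 by the brighter probe and 0.91 by the dimmer (technical SD 0.06 and 0.13). This was rank 182 from the highest of 13472 genes, and the value lay between 0.90 and 0.93 over the alternatives run. Icam1 differed by 0.49 and Itgax by 0.36 (technical SD 0.13 each). On the other side, Itgb2 differed by -0.36, Itgal by -0.30, Itgam by -0.29 and Cd44 by -0.24. The Cd44 sign depended on the probe, since the other probes gave 0.23 and 0.43. Itgav (0.08) and Itga5 (-0.04) were close between the siRNAs.

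In DMSO Itgal differed by 0.63, Itgax by 0.51 and Itga5 by 0.44 (technical SD 0.13 each), with the Ruvbl2 siRNA array higher. Itgav differed by 0.23 and Itga4 by 0.20 (0.30 by its dimmer probe), Itgam by 0.02, Itgb2 by -0.09, Cd44 by -0.11 and Icam1 by -0.28. These values depend on the scaling, because spike-in scaling moved the median of all genes to -0.27 here. Under it Itgal (0.32), Itgax (0.20) and Itga5 (0.13) were still above 0, while Itgam (-0.29), Itga4 (-0.11) and Itgav (-0.08) turned below it.

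**Figure D3:**
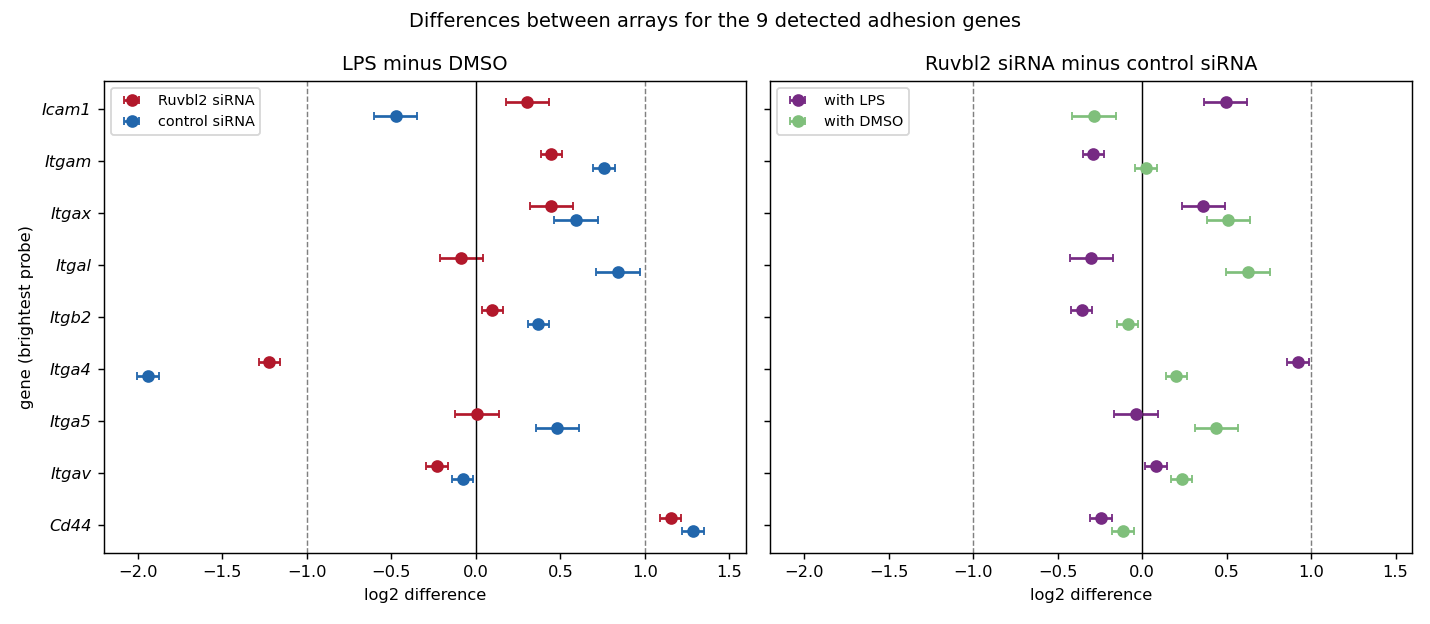
Log2 differences of the 9 measured genes by brightest probe: LPS minus DMSO with Ruvbl2 siRNA (red) and control siRNA (blue) on the left, and Ruvbl2 siRNA minus control siRNA with LPS (purple) and DMSO (green) on the right; bars are the technical SD and dashed lines mark 2-fold. Only Itga4 and Cd44 pass the dashed lines, on the left, and the Itga4 value with LPS on the right (0.92) is next to it.

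The difference between the LPS differences, Ruvbl2 siRNA minus control siRNA, was taken for the 12471 genes well above background on all 4 arrays. No member reached 1 in size (0 of 9), beside 0.513% of all genes called higher and 1.18% called lower (1.69%). Icam1 had 0.78 (rank 161 from the highest) and Itga4 0.72 (rank 214 from the highest, 0.61 by its dimmer probe). Itgal had -0.93 (rank 180 from the lowest). Itga5 had -0.48, Itgam -0.31, Itgb2 -0.27, Itgav -0.15, Itgax -0.15 and Cd44 -0.13, so 7 of the 9 were below 0 by the brightest probe. The member median was -0.15, and that of all measured genes, -0.03, was also below 0. The dimmer Itgam probe gave -0.81, and the other Cd44 probes gave 0.29 and 0.68, so the sign for Cd44 depended on the probe. With spike-in scaling the median of all genes was 0.28 and Icam1 (1.095) and Itga4 (1.04) passed 1, while of the 7 only Itgal (-0.61) and Itga5 (-0.16) were still below 0. Itgal, Itga5 and Icam1 thus kept their sign under both scalings, as did Itga4. Each of these values rests on 4 spots and combines their noise. The technical SD was 0.09 to 0.18 by the brightest probes, 0.25 for the dimmer Itgam probe and 0.30 for the dim Cd44 probe (0.68).

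Partner chains were looked at for the members that need them. Itgb1, the beta chain that pairs with the products of Itga4, Itga5 and Itgav, differed by -0.19 with LPS in Ruvbl2 siRNA cells and by 0.01 in control siRNA cells. Itgb7, another partner of the Itga4 product, had a level of 1.83 with LPS and 1.68 with DMSO in Ruvbl2 siRNA cells, and 2.42 with LPS and 0.996 with DMSO in control siRNA cells. It was called higher with LPS in control siRNA cells (difference 1.43) and not in Ruvbl2 siRNA cells (0.15), and the difference between these, -1.28, was itself past the size rule. Itgb5, a partner of the Itgav product, was called lower with LPS in Ruvbl2 siRNA cells (-1.11), against -0.47 in control siRNA cells. Spike-in scaling moves a comparison by the same amount for every gene. It put the medians of all genes at 0.28 for the difference of LPS differences and 0.33 for LPS with Ruvbl2 siRNA. Under it neither the -1.28 of Itgb7 nor the -1.11 of Itgb5 stays past the size rule. Itgb3, the partner of the Itgav product in osteoclasts, was near the floor on all arrays (levels of -5.54 to -4.49) and was not well above background on the Ruvbl2 siRNA arrays. Among osteoclast markers Ctsk and Acp5 were called higher with Ruvbl2 siRNA in DMSO (differences 1.17 and 1.51), Ctsk also under LPS (1.71, against 0.95 for Acp5), and Mmp9 was the other marker called higher under LPS (1.07). In all, 2 were called higher and 0 lower of 8 compared under LPS and of 9 compared in DMSO, where Ocstamp differed by -0.87 and Dcstamp by -0.22. Of all genes, 1.06% were called higher and 1.46% lower under LPS, and 1.01% and 0.537% in DMSO. Spike-in scaling, with a median of all genes of -0.27 in DMSO, ends the Ctsk call there and keeps that of Acp5. The summed signal of the 9 osteoclast markers relative to the 75th percentile was 34.0 with LPS and 23.6 with DMSO in Ruvbl2 siRNA cells, against 21.8 and 18.2 in control siRNA cells. This sum follows its brightest markers, Acp5 above all, and is not a measure of the whole set. Acp5 had levels of 4.28 with LPS and 3.23 with DMSO in Ruvbl2 siRNA cells, against 3.33 and 1.72 in control siRNA cells. The part of these markers in the integrin values was not tested.

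Other adhesion genes were read from lists of the pathway, again against 7.95% of genes called with LPS in control siRNA cells. Of 12 other integrin alpha genes 5 were compared there and 2 were called higher. Itga7, a laminin receptor chain gene, was 3.03-fold higher. With Ruvbl2 siRNA it was 1.58-fold higher, under the size rule, and spike-in scaling puts that value past the rule. The difference between its LPS differences was -0.94. Itga8, which was not well above background in DMSO, was at least 2.52-fold higher, and at least 2.37-fold higher with Ruvbl2 siRNA. Of 7 other beta genes 5 were compared, with Itgb7 the 1 called. Among 16 other immunoglobulin adhesion genes 12 were compared and 3 were called lower: Cadm1 (-1.67), L1cam (-1.25) and Alcam (-1.07). With Ruvbl2 siRNA, Cadm1 (-1.62) and L1cam (-1.37) were called lower as well, and Alcam differed by -0.59. Icam2, another ligand of the LFA-1 pair, differed by 0.21 with Ruvbl2 siRNA and by -0.11 with control siRNA. Cd47, which binds integrins in the membrane and the receptor SIRP-alpha, differed by 0.74 and 0.96, under the size rule with both. Spike-in scaling, with medians of all genes of 0.33 and 0.05, puts Cd47 past the rule with both.

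Of 8 selectins and selectin ligands 4 were compared with control siRNA, and Cd24a, a small glycoprotein that can carry selectin ligands, was called lower (-2.86, and -2.03 with Ruvbl2 siRNA). Cd24a was also called lower with Ruvbl2 siRNA in DMSO (-1.01), where 0.537% of all genes were called lower. Of 16 matrix ligand genes 7 were compared with control siRNA, with 1 higher and 2 lower. Spp1, the gene of osteopontin, a ligand of the vitronectin and Itga4 integrins, rose with LPS by 1.54 on the log2 scale with Ruvbl2 siRNA and by 2.08 with control siRNA. Tgfbi, a secreted integrin ligand gene, was called lower (at least 4.68-fold with Ruvbl2 siRNA and 2.50-fold with control siRNA). The 2.50-fold is imprecise, because the Tgfbi level on the control siRNA LPS array, -4.81, was near the lowest signal well above background there (-4.83). Mfge8, a bridging ligand for Itgav integrins, differed by -0.85 and -0.86, under the size rule. Vwf was at least 2.29-fold lower with LPS in control siRNA cells, where it was not well above background with LPS, and differed by -0.02 in Ruvbl2 siRNA cells. Fga was at least 3.21-fold lower with LPS in Ruvbl2 siRNA cells. In control siRNA cells its bound was 1.53-fold higher, a log2 difference of 0.62. That bound was not called and lay within the technical SD of 0.68 at such low levels, so no direction is read from it. Between the siRNAs, Vwf was at least 2.71-fold higher with Ruvbl2 siRNA under LPS and Fga at least 4.07-fold higher in DMSO. The share of all genes called higher was 1.06% under LPS and 1.01% in DMSO. Each bound has 1 array on which the gene was not well above background.

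Genes that switch integrins on from inside the cell were mostly close between LPS and DMSO: of 18 compared with control siRNA, 1 was called higher and 1 lower, with a median of -0.14 over 17 measured. Fyb, the gene of an adaptor of integrin activation, differed by 0.55 with Ruvbl2 siRNA and was 2.01-fold higher with control siRNA. Cytip, which binds cytohesin 1 and restrains LFA-1 adhesion, was lower by both (-1.32 with Ruvbl2 siRNA and -1.87 with control siRNA). Spike-in scaling ends the Cytip call with Ruvbl2 siRNA and keeps that with control siRNA. Tln1 and Fermt3, the talin and kindlin genes that bind integrin tails, differed by -0.18 and 0.22 with Ruvbl2 siRNA and by -0.09 and 0.05 with control siRNA. Of 31 genes of adhesion signalling, all compared with control siRNA, 1 was called, Src, at least 6.39-fold higher with Ruvbl2 siRNA and at least 4.20-fold higher with control siRNA. Its floors differ between the arrays, so these bounds cannot be set against each other. The kinase genes Lyn (0.62 with Ruvbl2 siRNA and 0.71 with control siRNA), Fgr (-0.75 and 0.23) and Syk (0.23 and 0.10) stayed under 2-fold.

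In the list of CD44 partners and hyaluronan genes, 2 of 11 were called higher with control siRNA: Mmp9, the gene of a matrix protease that docks on CD44, and Stab1, a hyaluronan-binding scavenger receptor gene. Stab1 differed by 0.66 with Ruvbl2 siRNA and by 1.99 with control siRNA, and the difference between these, -1.33, was past the size rule. Mmp9 rose 39.3-fold with Ruvbl2 siRNA and at least 26.7-fold with control siRNA. Its level on the Ruvbl2 siRNA DMSO array, -4.65, was near the lowest signal well above background there (-4.83). The 39.3-fold is therefore imprecise, and it cannot be set against the bound. Between the siRNAs under LPS, 1 of 11 genes of the list was called higher with Ruvbl2 siRNA, Mmp9 (1.07), and 1 lower, the hyaluronidase gene Hyal1 (-1.78). Of all genes, 1.06% were called higher and 1.46% lower in that comparison. In DMSO Hyal1 differed by -0.89, under the size rule. Msn, Ezr and Rdx, which link the CD44 tail to actin, were all under 2-fold (0.19, -0.49 and -0.003 with Ruvbl2 siRNA, and 0.53, -0.40 and -0.009 with control siRNA).

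**Figure D4:**
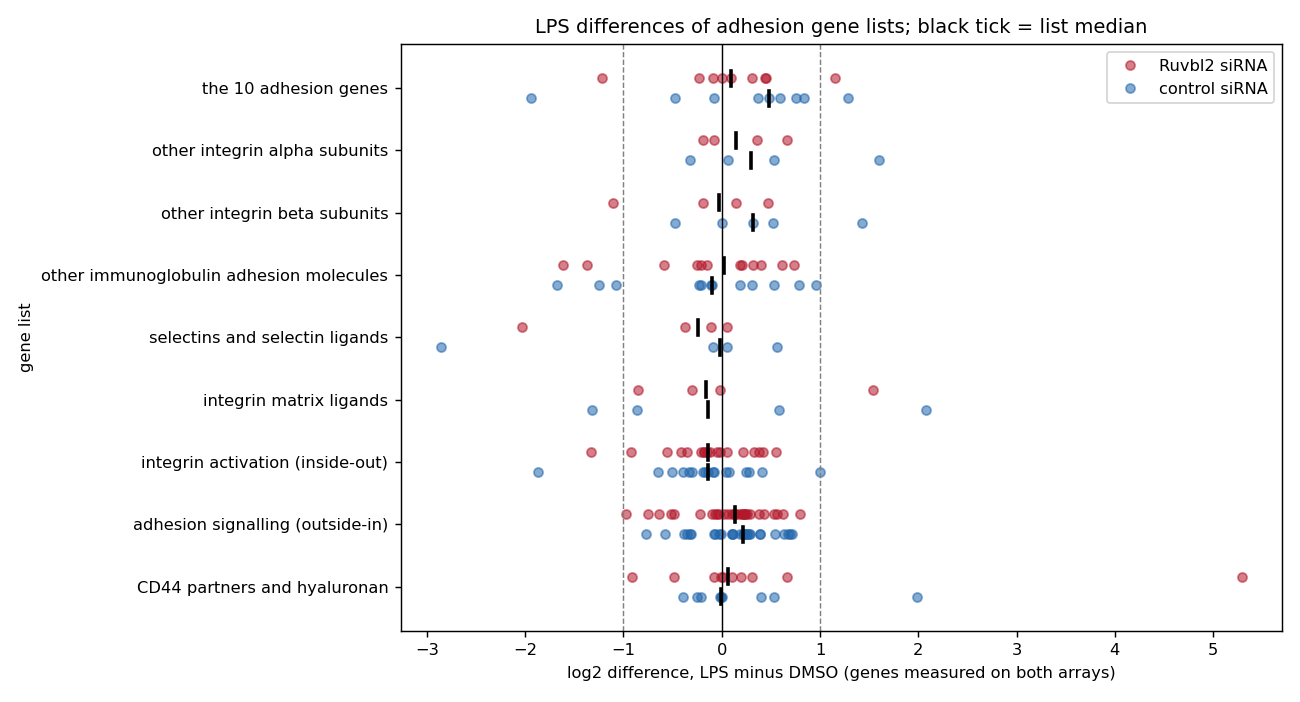
LPS minus DMSO (log2 difference, horizontal axis) for every gene of each adhesion list that was measured on both arrays, with Ruvbl2 siRNA in red and control siRNA in blue; black ticks are list medians and dashed lines mark 2-fold. The medians lie between -0.24 and 0.48, with few genes past the dashed lines in any list.

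The genes nearest in pattern to a member were those with the smallest distance over the 4 levels, each gene centred on its own mean, among 12470 others. With 4 arrays many genes lie close, and these distances are a description. For Itga4 they were 2310040G24Rik (distance 0.14), Gm20597 (0.19) and Zmynd15 (0.22), and the nearest member, Itgav, ranked 3642. For Cd44 they were Tnfrsf26 (0.017), a receptor gene of the tumour necrosis factor family, Sgcb (0.076) and Ebi3 (0.077), a cytokine subunit gene, and the nearest member was Itgam at rank 621. For Itga5 they were Myh14 (0.026), Gm26705 (0.045) and Aim2 (0.050), the gene of a DNA sensor, and the nearest member was Itgal at rank 837. For Icam1 they were Lzts3 (0.030), Arntl2 (0.033) and Eif4a3 (0.036), and the nearest member, Itgav, ranked 4388.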

How the data were processed

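Total RNA of 4 RAW264.7 cultures, 1 array per group, was hybridised in 1 colour to an Agilent mouse array. The deposited intensity values are, per the file headers, processed signals of Agilent Feature Extraction 11.5.1.1 (the submitters' processing notes name 11.0): background-subtracted and detrended within each array, without normalization across arrays. The value table the authors deposited, also intensity, equalled them at all 62976 spots. The scanner's outlier and background flags, other deposited columns per the file headers, were used as given.

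Spots of a probe were averaged as log2 after leaving out population outliers, and the array's 75th percentile was subtracted. RefSeq accessions named 32994 probes and 22911 genes. The probe of highest mean level stood for its gene. A gene measured well above background only on the brighter of 2 arrays got a bound against the higher of its own level and the lowest level well above background on the dim array. Differences were computed for all genes and called at 2-fold. Named genes were the members, their partner chains, up to 3 called genes per direction and list, and the 3 nearest in pattern; Icam2, Cd47, Mfge8, Tln1, Fermt3, Lyn, Fgr, Syk, Msn, Ezr, Rdx and the marker genes were named outside that rule, after their values were seen. The members and lists were chosen with earlier results of these data known. The 8 alternatives were normexp with quantile normalization, quantile normalization alone, cyclic loess, spike-in scaling, the mean over a gene's probes, a minimum level of -2, a 1.5-fold rule and the deposited value table. The normexp alternative used the median spot signal, as the files used hold no mean signal column, with offset 50. The number of arrays limits the precision. Tools were Python 3.11.15, pandas 2.3.3, R 4.3.3 and limma 3.58.1.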

Additional observations from a re-analysis of the deposited data

Results flagged for a closer look

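Members whose values went in opposite directions in the groups set side by side are given here. With 1 array per group none of these differences was tested. For a given gene the gap of the LPS differences and the gap of the siRNA differences are the same number by construction. The second is therefore not a further observation. Icam1 differed by 0.30 with LPS in Ruvbl2 siRNA cells and by -0.48 in control siRNA cells, a gap of 0.78, and its siRNA difference was 0.49 under LPS and -0.28 in DMSO, the same gap of 0.78. Itgal differed by -0.09 with LPS in Ruvbl2 siRNA cells and by 0.84 in control siRNA cells, a gap of -0.93, of which the first value lay within its technical SD of 0.13. Its siRNA difference was -0.30 under LPS and 0.63 in DMSO, again a gap of -0.93. Itgam had an siRNA difference of -0.29 under LPS and 0.02 in DMSO (gap -0.31), and Itga5 one of -0.04 and 0.44 (gap -0.48). The DMSO value of Itgam and the LPS value of Itga5 were within their technical SDs.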

How the results depend on the processing

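Of the 8 alternatives, 3 cannot move a member difference (the 1.5-fold rule, the minimum level and the deposited value table). Under the other 5 (normexp with quantile normalization, quantile normalization alone, cyclic loess, spike-in scaling and the mean over probes), 175 of 225 member differences stayed within the technical SD and 50 moved. Of 20 called values 18 kept their call, 3 others became calls, and 17 uncalled values changed sign. With spike-in scaling 0 members were called lower with LPS in Ruvbl2 siRNA cells (Itga4 -0.85), and 2 were called higher in the difference of LPS differences (Icam1 and Itga4). The mean over probes ended the Cd44 call with control siRNA (0.73) and made that of Itgam (1.39). Of the 9 members, a size rule of 1.5-fold called 4 higher with LPS in control siRNA cells, beside 1609 of 13512 genes. Itga4 stayed the only member called lower with LPS, with either siRNA. With Ruvbl2 siRNA the rule called 1 member higher under LPS, beside 518 of 13472 genes, and 1 higher in DMSO, beside 500 of 13418. For the difference of LPS differences it called 2 members higher and 1 lower, beside 364 and 651 of 12471 genes. Over all genes, the counts called higher and lower were 559 and 280 for LPS with Ruvbl2 siRNA, 776 and 298 with control siRNA, 143 and 197 for the siRNAs under LPS, 136 and 72 in DMSO, and 64 and 147 for the difference of LPS differences. In the same order, normexp with quantile normalization gave 298 and 116, 450 and 150, 24 and 72, 14 and 25, and 14 and 51. The 1.5-fold rule gave 1232 and 1059, 1609 and 1096, 518 and 708, 500 and 335, and 364 and 651. Asking for a level of -2 or more gave 366 and 160 for LPS with Ruvbl2 siRNA, 41 and 112 under LPS, 26 and 34 in DMSO, and 35 and 96 for the difference. Spike-in scaling gave 1104 and 119 for LPS with Ruvbl2 siRNA, 68 and 221 for the siRNAs in DMSO, and 243 and 59 for the difference, and moved the medians of all genes to 0.33, -0.27 and 0.28. The share of calls that were higher thus was 90.3% under it against 66.6% for LPS with Ruvbl2 siRNA, 23.5% against 65.4% in DMSO (35.9% with normexp), and 80.5% against 30.3% for the difference; under LPS it was 25% with normexp against 42.1%. The cause of these shifts was not tested. No paired analysis was possible because each group has 1 array, for which reason no replicate could be left out either, and the slide could not be a block because all arrays share 1 slide. Signal over background limits Vcam1, Itgb3 and the dim probes.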
